A study of Caenorhabditis elegans with 2 samples.

Results

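Splicing factor genes were taken as the protein-coding genes of the RefSeq annotation of build WBcel235 (ce11) whose symbol begins with snr-, lsm-, prp-, uaf- or rsp-. The rule gave 37 of 19971 nuclear protein-coding genes: 7 snr genes, 7 lsm genes, 13 prp genes, 2 uaf genes and 8 rsp genes. They were examined in chromatin immunoprecipitation with sequencing (ChIP-seq) of B0261.1, a C. elegans protein that carries a Myb-like domain. Such domains bind DNA in many transcription factors. The worms were of strain OP662, in which the allele unc-119(tm4063) and the transgene wgIs662 are both present, and the transgene encodes B0261.1 with a C-terminal GFP-FLAG tag. Antibodies against GFP were used on whole young adults of mixed sex, collected 64 hours after they had been synchronised as starved L1 larvae. There was 1 group of 2 biological replicates, numbered 1 and 3, with no other strain, stage or treatment, and the promoter that drives the transgene is not given in the sources used here.

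Introns are removed from messenger RNA by the spliceosome, which is built from small nuclear RNAs (snRNAs) and many proteins. Sm proteins, the products of the snr genes, form a ring around most spliceosomal snRNAs. The Sm-like (lsm) proteins form related rings, one of which binds the U6 snRNA in the nucleus and another of which acts in mRNA decay in the cytoplasm. The prp genes are named after yeast genes for pre-mRNA processing, the uaf genes encode the subunits of U2AF, which recognises the end of the intron, and the rsp genes encode SR proteins, which bind exons and guide splice site choice.

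A gene was counted as having a peak when a summit lay from 500 bp upstream to 100 bp downstream of its annotated start, and a region is likewise said to be at a gene only where its summit lay in this window. In C. elegans a spliced leader is joined to many transcripts, so the annotated start can lie downstream of where transcription begins. The deposited list of peaks that passed the cutoff on the irreproducible discovery rate (IDR) held 1550 regions, the list of both replicates pooled 30000, that of replicate 1 23931 and that of replicate 3 30000. The lists other than that of IDR peaks hold peaks together with background regions, so a low-ranking region is not a called peak. Signal is the authors' value per region, on a scale of its own in each list, and rank 1 is the highest signal of a list. Read depth is not given in the lists, and intervals below cover the counting of genes only.

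The sequences of the 4 places where an IDR summit lay at splicing factor genes are shown because the 5 splicing factor genes with an IDR peak in the window have it there. Each runs from 50 bp before to 50 bp after the summit on the plus strand of RefSeq WBcel235, with the summit at base 51, and capitals mark CGCGCA or its reverse complement TGCGCG.
rsp-1 and rsp-2, II:11453149-11453249: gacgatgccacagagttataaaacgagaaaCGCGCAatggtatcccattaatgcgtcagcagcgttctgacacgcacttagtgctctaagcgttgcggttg
prp-8, III:8163997-8164097: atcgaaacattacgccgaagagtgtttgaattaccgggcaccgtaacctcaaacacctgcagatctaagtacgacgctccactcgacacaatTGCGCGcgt
snr-1, IV:17087612-17087712: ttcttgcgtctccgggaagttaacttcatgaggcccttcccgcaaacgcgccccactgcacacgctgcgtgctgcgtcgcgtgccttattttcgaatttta
snr-4, V:11980045-11980145: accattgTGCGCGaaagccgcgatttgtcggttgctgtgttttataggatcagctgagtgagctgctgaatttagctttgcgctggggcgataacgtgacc

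Of the 37 splicing factor genes, 5 had an IDR peak in the window: snr-1, snr-4, prp-8, rsp-1 and rsp-2 (13.5%, 95% Wilson interval 5.91 to 28.0%). The share over all protein-coding genes was 1.84%, or 367 of 19971. The genes were chosen with earlier results of these data known, so this difference was not tested. The 5 genes have only 4 summits between them, since rsp-1 and rsp-2 are transcribed away from each other and share one. Any region of the pooled list lay in the window of 21 of the 37 genes (56.8%, interval 40.9 to 71.3%), against 25% of all protein-coding genes. Among genes with a pooled region, 5 of 21 splicing factor genes had an IDR peak (23.8%, interval 10.6 to 45.1%), against 7.26% of all such genes.

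Replicate 1 had a region in the window of 13 of the 37 genes (35.1%), against 18.5% of all protein-coding genes. Replicate 3 had one at 18 of the 37 (48.6%), against 24.2%. Both replicates had a region at 9 of the 37 (24.3%), against 11.4%. No list had a region at 13 of the 37 (35.1%), against 66% of all protein-coding genes.

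The count of strong regions differed between the replicates. Each list was limited to its 1550 regions of highest signal, the number of IDR peaks. Pooled, these lay at 5 of the 37 genes (13.5%), against 1.85% of all protein-coding genes. Replicate 3 had one at 4 of the 37 genes (10.8%, interval 4.29 to 24.7%), against 1.67% of all protein-coding genes. Replicate 1 had one at 0 of the 37 (interval 0 to 9.41%), against 0.901%. The higher share among strong regions was therefore seen in the list of replicate 3. For replicate 1 the interval reaches from 0 to well above 0.901%, so 37 genes cannot show whether its share is higher or not. One of the 1550 highest regions of replicate 1, near snr-4, lay just outside the window. Of all 367 genes with an IDR peak in the window, 305 (83.1%) had such a region in replicate 3 and 158 (43.1%) in replicate 1.

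**Figure D1:**
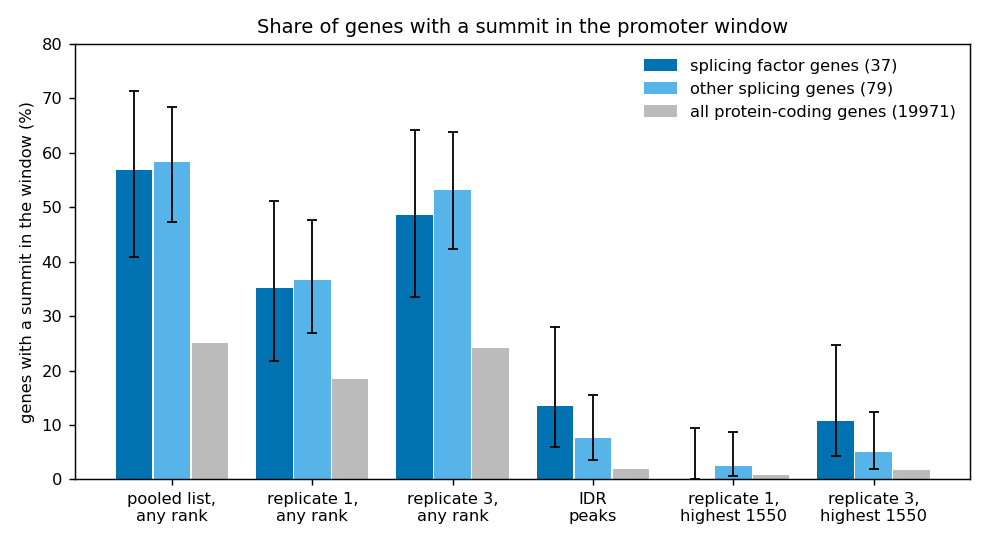
Share of genes with a summit in the promoter window (percent, vertical axis) in each list, for the 37 splicing factor genes, 79 other splicing genes and all 19971 protein-coding genes; bars are shares and lines 95% Wilson intervals. The splicing factor genes had 56.8% in the pooled list and 13.5% among IDR peaks, above 25% and 1.84% of all genes, and 0 among the highest regions of replicate 1. Both sets of splicing genes were chosen with earlier results of these data known.

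Among the Sm protein genes, snr-4 had the strongest peak of any splicing factor gene, and a second gene, snr-1, had a weaker one. snr-4 (C52E4.3, V:11978508-11979723, minus strand) encodes Sm D2. Its IDR summit lay at position 11980095 on V, 372 bp upstream of the start, with a signal of 369 and rank 904. It ranked 887 in the pooled list with a signal of 381, and 919 in replicate 3 with a signal of 327. Replicate 1 had no summit in the window. Its nearest summit lay 521 bp upstream of snr-4, just outside the window, with a signal of 83.6 and rank 1160. Replicate 1 thus had a region of rank 1160 near this place, 149 bp from the IDR summit. It lay nearer to a second IDR summit outside the window, described below.

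The snr-4 summit is shared with an snRNA gene. C52E4.8, annotated as an snRNA gene (V:11980118-11980261, plus strand), starts 23 bp from the IDR summit, which lies upstream of it, between the snRNA gene and snr-4. It runs away from snr-4. A second IDR summit, with a signal of 344 and rank 944, lay 178 bp downstream of the first base of C52E4.8 and 573 bp upstream of snr-4, outside the window. The summit of replicate 1 nearest to snr-4 lay inside C52E4.8, 126 bp from its first base, and so nearer to the second IDR summit than to the first. The first IDR summit also lay within C52E4.14, an unclassified noncoding RNA gene (V:11979959-11980101). These lists cannot tell which of the 3 genes the peak belongs to.

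The snRNA gene is shown because it shares the peak and because it exists in near-identical copies.
C52E4.8, V:11980118-11980261, plus strand: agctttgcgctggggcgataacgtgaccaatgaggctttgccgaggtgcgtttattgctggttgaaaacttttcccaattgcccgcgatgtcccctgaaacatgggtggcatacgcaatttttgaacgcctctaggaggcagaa
Of its 114 sequences of 31 bases, 0 occur once in the nuclear genome, while 69 of 71 do in the window printed for snr-4. There are 4 other snRNA genes of nearly the same sequence, all on V. T11F9.15 is identical, K03B8.10 and T11F9.16 differ by 1 base, and F10D2.13 differs by 5. None of the 4 had an IDR summit within 300 bp. The strongest pooled regions within that distance ranked 2325 at F10D2.13, 3764 at K03B8.10 and 6139 at T11F9.15, and T11F9.16 had none. In the list of replicate 3 alone, F10D2.13 had a region of rank 1529, which is among the 1550 highest. The part that repeated sequence plays in the position of the summits was not tested.

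snr-1 (Y116A8C.42, IV:17088049-17088946, plus strand) encodes Sm D3. Its IDR summit lay 387 bp upstream, at 17087662 on IV, with a signal of 232 and rank 1235. The summits of the other lists lay within 10 bp of each other: 394 bp upstream in the pooled list (signal 233, rank 1226), 394 bp in replicate 3 (signal 186, rank 1378) and 384 bp in replicate 1 (signal 29.8, rank 2992). The gene was thus ranked lower in replicate 1 than in replicate 3 although the position was the same. The summit lies between snr-1 and snx-13, a sorting nexin gene transcribed away from it, and falls in the windows of both. The other 5 Sm protein genes had no IDR peak. Of these, snr-2 (Sm B) had a pooled region of rank 5878, snr-3 (Sm D1) had one of rank 13967, and snr-5, snr-6 and snr-7 had no region in the window in any list.

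Of the prp genes, prp-8 was the only one of 13 with an IDR peak in the window (7.69%, interval 1.37 to 33.3%), against 1.84% of all protein-coding genes. prp-8 (C50C3.6, III:8164373-8172710, plus strand) encodes the large protein at the heart of the spliceosome's catalytic centre. Its IDR summit lay 326 bp upstream, at 8164047 on III, with a signal of 217 and rank 1315. The pooled rank was 1419 (signal 195), that in replicate 3 was 1583 (signal 157) and that in replicate 1 was 2766 (signal 31.2). In replicate 3 prp-8 therefore fell just outside the 1550 highest regions. The summits of the replicates were 44 bp apart. All 3 lists other than the IDR list held a second, weak summit nearer the start, at rank 24294 in the pooled list, 25040 in replicate 3 and 8183 in replicate 1.

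The other prp genes had no IDR peak in the window, and some had weaker regions there. prp-40, whose yeast counterpart belongs to the U1 particle, had a pooled region 107 bp upstream at rank 3774 and one in replicate 3 at rank 2360, but none in replicate 1. prp-39 had a pooled region 79 bp downstream of its start at rank 5020 and one in replicate 3 at rank 3481. prp-18 had a pooled region of rank 23525, and prp-19 and prp-3 each had a region in the window in 1 replicate only. The remaining 7 prp genes, among them prp-31, prp-6 and prp-38, had no region in the window in any list. They are 53.8% of the 13, against 66% of all protein-coding genes. In all, 4 of 13 prp genes had a pooled region (30.8%, interval 12.7 to 57.6%), against 25% of all protein-coding genes.

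The SR protein genes rsp-1 (W02B12.3, II:11453362-11455864, plus strand) and rsp-2 (W02B12.2, II:11451441-11452955, minus strand) lie head to head with 406 bp between them. Their common IDR summit, at 11453199 on II, was 163 bp upstream of rsp-1 and 244 bp upstream of rsp-2. It had a signal of 209 and rank 1355. The pooled rank was 1334 (signal 210), that in replicate 3 was 1490 (signal 167) and that in replicate 1 was 1902 (signal 41.4). The summits of the replicates were 13 bp apart. These lists cannot assign the summit to one of the genes, so as independent places the 5 genes count as 4.

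Among the other SR protein genes, rsp-6 came nearest to an IDR peak. Its pooled region lay 135 bp upstream at rank 2160 (signal 130), with ranks of 2281 in replicate 3 and 2493 in replicate 1. The summits of the replicates were 107 bp apart. rsp-7 had a pooled region at rank 6497, in a window shared with snu-13, a gene for a snoRNA- and snRNA-binding protein. Its summit lay within 100 bp of M28.13, annotated as a noncoding RNA gene. rsp-5 shared a pooled region of rank 13967 with snr-3, the second pair of splicing factor genes that lie head to head. rsp-3 had a region in the window in replicate 1 only, and rsp-4 and rsp-8 had none there in any list. Both had pooled regions just outside it, that of rsp-8 at rank 3261, 583 bp upstream, and that of rsp-4 at rank 5438, 547 bp upstream.

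The lsm genes and the uaf genes had regions but no IDR peak in the window, where 1.84% of all protein-coding genes had one. With 0 of 7 lsm genes (interval 0 to 35.4%) and 0 of 2 uaf genes (0 to 65.8%), the counts are too small to set these families apart. Of the 7 lsm genes 6 had a pooled region (85.7%, interval 48.7 to 97.4%), against 25% of all protein-coding genes, and their ranks ran from 2433 to 27261. lsm-8, whose product marks the nuclear ring on U6, had the best of these, 377 bp upstream at rank 2433, with ranks of 3138 in replicate 3 and 2535 in replicate 1. That summit lay inside sqd-1, the neighbouring gene. lsm-6 had a pooled region at rank 2763, lsm-5 at rank 6822 and lsm-7 at rank 7379, the last with none in either replicate's own list. lsm-1, whose product belongs to the cytoplasmic ring, had one at rank 8507 in a window shared with the ribosomal protein gene rps-9. uaf-1, the large subunit of U2AF, had a pooled region 20 bp upstream at rank 4870. The strongest summits of the replicates were 385 bp apart, but replicate 3 had a second one of nearly the same signal, at rank 8002, 19 bp from that of replicate 1. uaf-2, the small subunit, had one at rank 19018.

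**Figure D2:**
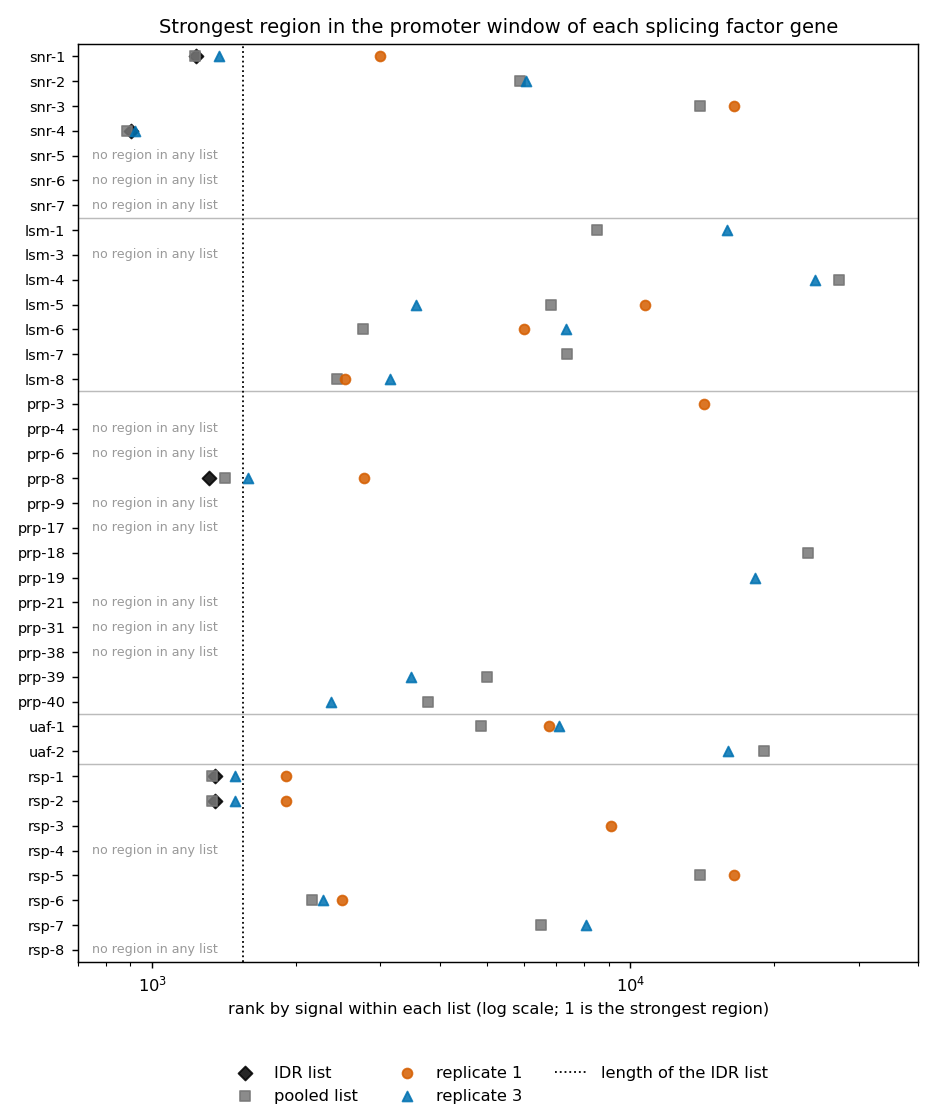
Rank by signal (horizontal axis, log scale, 1 is the strongest) of the strongest region in the promoter window of each of the 37 splicing factor genes, with 1 marker per list and rows ordered by gene family. The 5 genes with an IDR peak rank from 904 to 1355 in the IDR list and from 1902 to 2992 in replicate 1, where snr-4 has no summit in the window, and 13 genes have no region in the window in any list.

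The peaks of all 5 genes were in the weaker part of the IDR list. Their ranks ran from 904 to 1355 of 1550 and their signals from 209 to 369, with a median of 217. The median was 257 over all 367 genes with an IDR peak in the window and 504 over all 1550 IDR peaks. None of the 5 was among the IDR peaks at or above the median signal of the list. Of all 367 genes with an IDR peak in the window, 73 had one there, which is 0.366% of all 19971 protein-coding genes. Most of the 367 were thus also below that median. In the pooled list, the 21 splicing factor genes with a region had a median rank of 5020, against 8617 over the 4987 genes with a region.

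**Figure D3:**
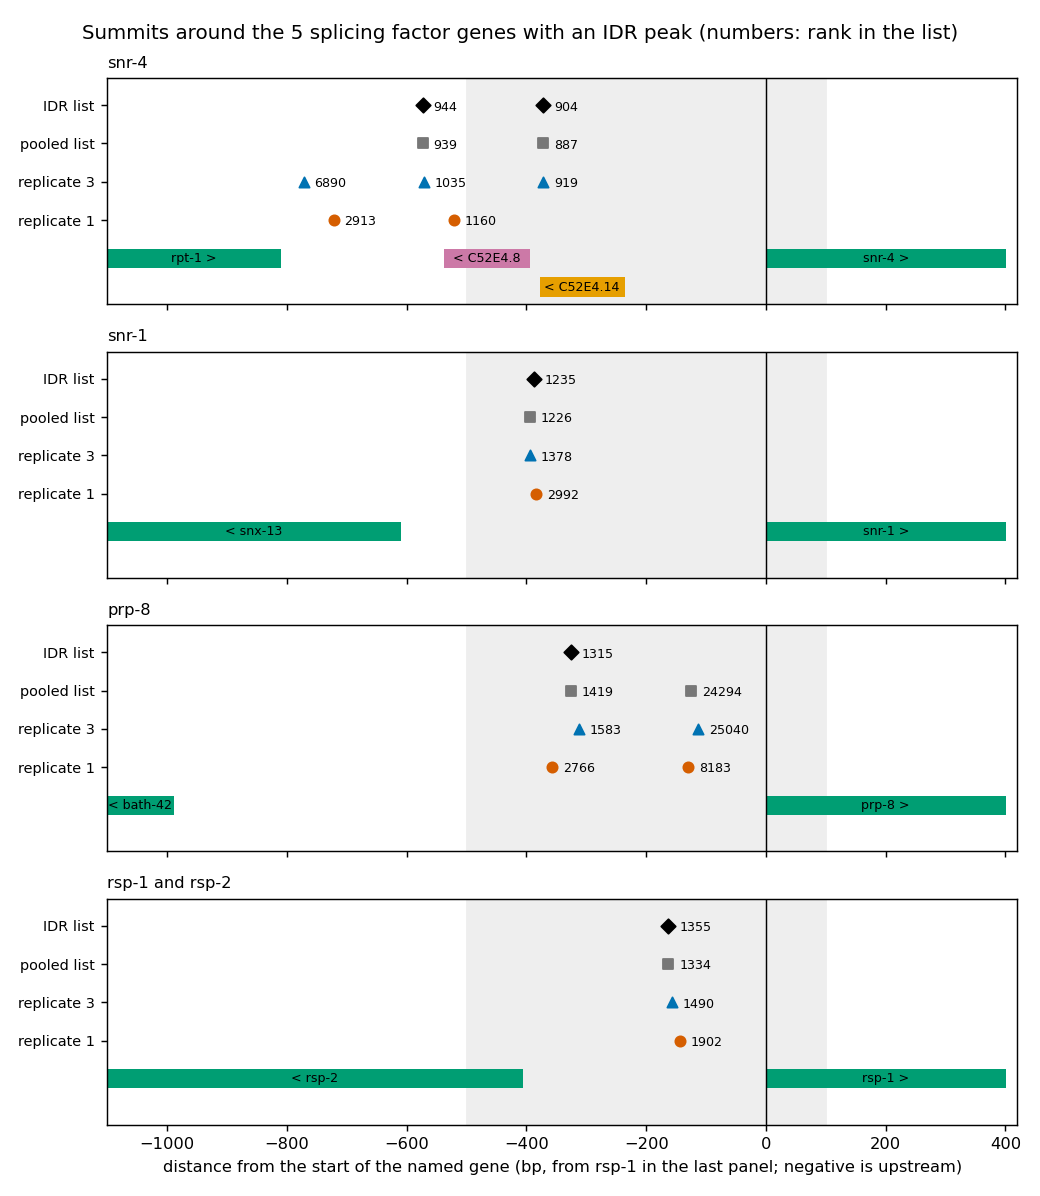
Summits of the 4 lists (rows; numbers are ranks) by distance from the gene start (horizontal axis, bp) around snr-4, snr-1, prp-8 and the pair rsp-1 and rsp-2; bars are annotated genes, arrowheads their direction, and grey the promoter window. At snr-4 the IDR summits lie at both sides of the snRNA gene C52E4.8, and the strongest summit of replicate 1 lies inside it. At the other 3 places the strongest summits of the lists lie within 44 bp, and at prp-8 weaker ones lie nearer the start.

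The IDR summits lay upstream of the starts at all 5 genes, 163 to 387 bp away, with a median of -326 bp. For 4 of these genes, those with a summit in the windows of both replicates, the replicates' median offsets had an SD of 20.2 bp (n = 2). The common summit of rsp-1 and rsp-2 enters these medians at 2 offsets. The replicates' summits themselves were 44 bp apart at prp-8, 13 bp at rsp-1 and rsp-2 and 10 bp at snr-1. Over all 367 genes with an IDR peak the median was -238 bp, and 94.8% lay upstream. In the pooled list the median was -240 bp for the 21 splicing factor genes, 20 of which had the summit upstream (95.2%), and -169 bp over all 4987 genes, 83.3% of which did. Of the 9 splicing factor genes with a region in both replicates, 5 had their strongest summits within 100 bp of each other: prp-8, rsp-1, rsp-2, snr-1 and lsm-8. The share was 55.6%, against 59.9% of the 2286 protein-coding genes with a region in both. The other 4, lsm-5, lsm-6, rsp-6 and uaf-1, had them 107 to 405 bp apart. Taking any summits in the window, 8 of the 9 genes had a pair within 100 bp, the exception being lsm-6.

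**Figure D4:**
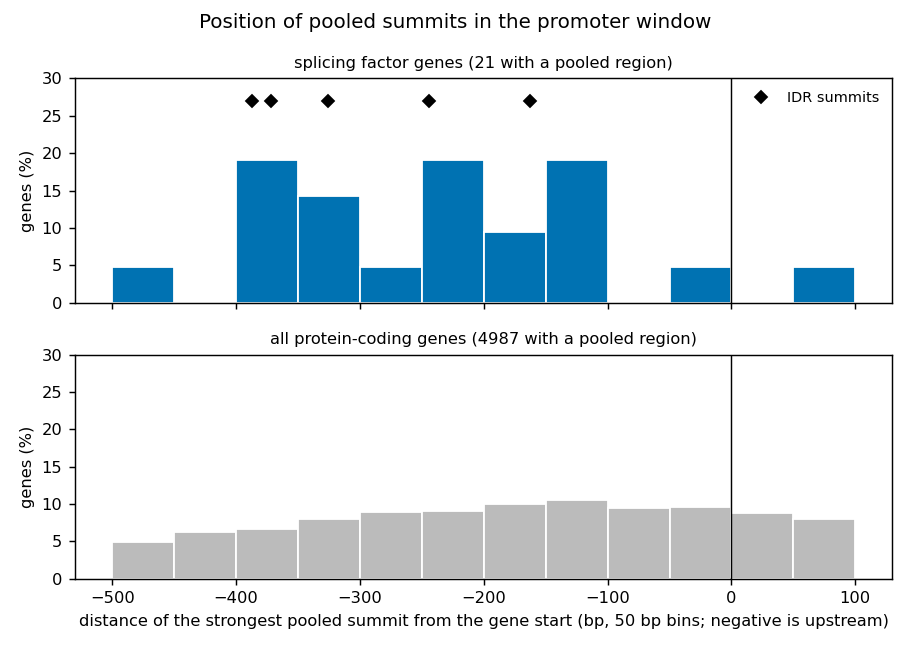
Distance of the strongest pooled summit from the gene start (horizontal axis, bp in 50 bp bins) as percent of genes with a pooled region, for 21 splicing factor genes (top; diamonds mark the 5 IDR offsets) and 4987 protein-coding genes (bottom). The median is -240 bp in the upper panel and -169 bp in the lower one.

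Of the splicing factor genes without an IDR peak in the window, prp-19 and lsm-7 had one outside it. prp-19, a ubiquitin ligase of the spliceosome, had an IDR summit 653 bp upstream with rank 1371, which lay within 100 bp of the neighbouring gene K10D2.5. lsm-7 had an IDR summit 548 bp downstream of its start, in its coding sequence, with rank 1497. Among IDR summits inside the window of a splicing factor gene, the farthest from the start was that of snr-1. With a window from 1000 bp upstream, 27 of the 37 genes had a pooled region, against 32.7% of all protein-coding genes. The 6 genes gained were prp-19, rsp-8, rsp-4, prp-31, snr-5 and prp-17, with a rank of 1453 for prp-19 and ranks from 28713 to 29614 for prp-31, snr-5 and prp-17.

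A small RNA gene was near 1 of the 4 summits. Within 100 bp of a tRNA, snoRNA, snRNA, SL RNA or rRNA gene or a tRNA pseudogene lay the summit of snr-4 alone, that is 20.0% of the 5 genes, against 19.6% of all 367 genes with an IDR peak in the window. The nearest such gene was 1493 bp from the prp-8 summit, 10875 bp from that of rsp-1 and rsp-2, and 30265 bp from that of snr-1. Without summits near small RNA genes 4 of the 37 genes had an IDR peak, against 305 of 19971 (1.53%).

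A summit shared with the window of another protein-coding gene was found for 3 of the 5 genes (rsp-1, rsp-2 and snr-1), against 120 of 367 genes (32.7%). Of these, rsp-1 and rsp-2 share 1 summit with each other, so they are 1 place. The summit lay between protein-coding genes for all 5 genes, as it did for 87.7% of all 367 genes. The nearest upstream gene was on the opposite strand for 25 of the 37 splicing factor genes (67.6%), against 46.2% of all protein-coding genes. Genes at any distance were counted, also ones that overlap the gene, as ada-2 overlaps lsm-4. An IDR peak was found at 4 of these 25 splicing factor genes and at 1 of the other 12. Both rsp-1 and rsp-2, with their common summit, are among the 4. Over all protein-coding genes the shares were 2.54% with a neighbour on the opposite strand and 1.24% with one on the same strand.

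Of the short sequences searched for, only CGCGCA occurred in the windows printed above. Within 50 bp of the summit, on both strands, CGCGCA occurred at 3 of the 4 places: 42 bp after the prp-8 summit, 43 bp before that of snr-4 and 20 bp before that of rsp-1 and rsp-2, counted on the plus strand to the first base of the match. It occurred in 14.7% of the 307 windows at promoter IDR summits, 8.26% of all 1550 IDR windows and 2.95% of 30000 pooled windows. CGCGCA was among the sequences chosen from earlier results of these data, and the windows were rich in G and C, with a median of 51.0% at the 4 places, 48.5% at promoter IDR summits and 39.6% at pooled summits. GTTCNA, the core of the B box of tRNA genes, occurred at 0 of the 4 places. It was in 15.6% of promoter IDR windows, 20.1% of all IDR windows and 18.9% of pooled windows. CGGCCA and ACCACT also occurred at 0 of 4, in 13.0% and 11.7% of promoter IDR windows, and in 14.5% and 19.8% of all IDR windows. With 4 places, a count of 0 cannot show that a sequence is rarer there, and whether CGCGCA is more frequent there was not tested.

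Of 79 other splicing genes, 6 had an IDR peak in the window (7.59%, interval 3.53 to 15.6%), against 1.84% of all protein-coding genes. Like the 37 genes, these were chosen with earlier results of these data known, here by name. Neither share is independent support for the other. They were snu-23 and mog-4, whose yeast counterparts act in the assembly and activation of the spliceosome, the SR-related gene rsr-1, the SR protein kinase gene spk-1, the splicing regulator smu-2 and fust-1, an RNA-binding protein gene. snu-23 had the strongest, 114 bp upstream with a signal of 389 and rank 880, and it ranked 827 in replicate 3 and 987 in replicate 1. The IDR ranks of the other 5 were 994 for mog-4, 1122 for fust-1, 1350 for rsr-1, 1437 for spk-1 and 1533 for smu-2. None of the 6 summits lay within 100 bp of a small RNA gene. A pooled region was found at 46 of the 79 (58.2%), against 25% of all protein-coding genes. Like those of the 37 genes, all 6 IDR peaks were below the median signal of the IDR list. That holds for most genes, since only 73 of the 367 with an IDR peak in the window had one at or above it.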

How the data were processed

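The measurements were ChIP-seq peak lists on build ce11 (WBcel235). According to the file descriptions deposited with them, reads of each replicate were aligned, and peaks and background regions were called against a control, by replicate and pooled, as input for IDR. Aligner, caller, versions and IDR threshold are not given in the sources used here. The signal of each region is the authors' value, deposited without a stated normalization, and was compared only within a list. Lists on ce10 were not used here. Depth is not in the lists, so its effect on the precision of regions and ranks cannot be judged.

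Coordinates are 1-based. Genes came from RefSeq (WormBase release 298), and a gene's region is the one of highest signal in its window. The list of other splicing genes held 92 names, of which 79 were annotated; it includes crn-3, an exosome gene. Genes and lists were chosen with earlier results of these data known, so they were not tested, and shares stand beside those of all protein-coding genes. Named with values were genes with an IDR peak and the 10 best-ranked others in the pooled list, the rest by counts or rank. The search for snRNA copies (within 10 single-base edits) and the counts of upstream orientation, of places and of summit pairs were added after the data were seen. On simulated summits, 100 of 100 planted in the window were found and 100 of 100 planted 1 bp outside it were not. Calculations used scipy 1.17.1, pandas 2.3.3 and numpy 2.4.6 under Python 3.11.15, and plots matplotlib 3.10.9.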

Additional observations from a re-analysis of the deposited data

How the results depend on the processing

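The 5 genes with an IDR peak stayed the same 5 with any annotated transcript start, where 1.96% of all protein-coding genes had a peak. They also stayed the same with 1 summit per site of overlapping regions (1.76%) and with the 1550 highest pooled regions (1.85%). A window from 1000 bp upstream added prp-19 (2.70% of all protein-coding genes had a peak there). From 200 bp upstream 1 gene was left (0.771% of all protein-coding genes had a peak there), rsp-1, at -163 bp with a signal of 209, 0 of them near a small RNA gene, and 3 other splicing genes and 12 genes with a pooled region (15.9% of all protein-coding genes had one). IDR peaks at or above the median signal left 0 splicing factor genes, 0 near a small RNA gene and 0 other splicing genes. Of all 367 protein-coding genes with an IDR peak in the window, 73 were left. The window from 1000 bp gave a median offset of -349 bp and a median signal of 213, and the highest pooled regions a median signal of 210.

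By replicate, the count of genes among the highest regions was 0 without replicate 3 and 4 without replicate 1, against 0.901% and 1.67% of all protein-coding genes. The count near a small RNA gene was 0 and 1, that of other splicing genes 2 and 4, and that of genes with any region 13 and 18, against 18.5% and 24.2% of all protein-coding genes. The median signal without replicate 1 was 177, on that list's own scale, and without replicate 3 there was no gene to give a median. No paired analysis was possible because there is 1 group. Small numbers of genes and unknown depth limit every share.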
